A study of Mus musculus with 384 samples.

Results

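Kidney cells sorted for the receptor PDGFRB and against the leukocyte protein CD45 were compared by their level of Acta2, the smooth muscle actin whose protein is the usual mark of a myofibroblast. The cells compared were wells of at least 50000 reads in which Col1a1, Col1a2 and Col3a1 together reached 2000 CPM (a gene's reads scaled to a common total of 1e6 reads per well) and in which at most 1 of 7 endothelial markers (Pecam1, Cdh5, Kdr, Emcn, Egfl7, Flt1 and Plvap) reached 100 CPM. They were selected on Acta2 itself: wells at 1000 CPM or more are called Acta2-high and the others Acta2-low. This left 80 of the 192 CD45- wells (384 wells in the whole series), 39 Acta2-high and 41 Acta2-low. Batch 1 held 23 Acta2-high and 21 Acta2-low wells, and batch 2 held 16 and 20.

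Myofibroblasts are matrix-producing cells that carry a contractile apparatus of smooth muscle type, in which actin filaments slide along myosin under the control of tropomyosins, calponins and the kinase that phosphorylates the myosin light chain. Many contractile genes share a DNA element, the CArG box, which binds serum response factor. In the injured kidney, myofibroblasts are known to arise among PDGFRB-positive pericytes and fibroblasts, a population that also holds vascular smooth muscle, mesangial and renin cells.

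Both classes came from mouse kidney at 8 weeks of age, each cell in its own well, with the sort population labelled PDGFRB+CD45-. The well names of both classes carry the tag uuo, whose meaning is not written out anywhere in the labels, and no strain, genotype, animal or control kidney is named for them. Each plate was therefore treated as 1 sample and each class of a batch as 1 sample, so no p-value was computed and the comparison has no replicate error beyond the agreement of the 2 batches. Member wells held 96370 to 1026440 reads. Median reads per well were 406685 (Acta2-high) and 330948 (Acta2-low) in batch 1 and 465543 and 383984.5 in batch 2, and median genes with a read were 4097 and 3957, then 4444.5 and 3883. Ptprc, the gene of CD45, had 7 reads in 5 of the 80 wells. Pdgfrb had a read in 74 of them, and it reached 100 CPM in 10 of 23 Acta2-high and 8 of 21 Acta2-low wells of batch 1 and in 9 of 16 and 8 of 20 wells of batch 2. The highest Pearson correlation between any 2 member wells was 0.626, and no doublet caller was run.

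Acta2 (ENSMUSG00000035783, on the reverse strand of chromosome 19, 34241090 to 34255590 in GRCm38) ranged in the wells of batch 1 from 1006 CPM over a median of 2760 to 19607 CPM in the Acta2-high class, and from 23.3 over 133 to 973 CPM in the Acta2-low class. In batch 2 the lowest, median and highest values were 1161, 3349 and 10464 CPM against 12.4, 375 and 999.98 CPM. The classes do not overlap because the split was made on this value. The wells nearest the split stood at 973 and 1006 CPM in batch 1 and at 999.98 and 1161 CPM in batch 2, and 21 of the 80 wells lay between 500 and 2000 CPM. The classes are therefore ranges of 1 measure, and whether they hold different cell types was not tested. With reads summed over the wells of a class, Acta2 stood at 4794 CPM (exact Poisson 95% interval 4752 to 4837) against 233 CPM (222 to 243) in batch 1 and at 4749 (4701 to 4796) against 380 CPM (367 to 394) in batch 2. Such intervals cover counting error only. The tables state no molecular identifiers, so reads are not independent molecules.

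**Figure D1:**
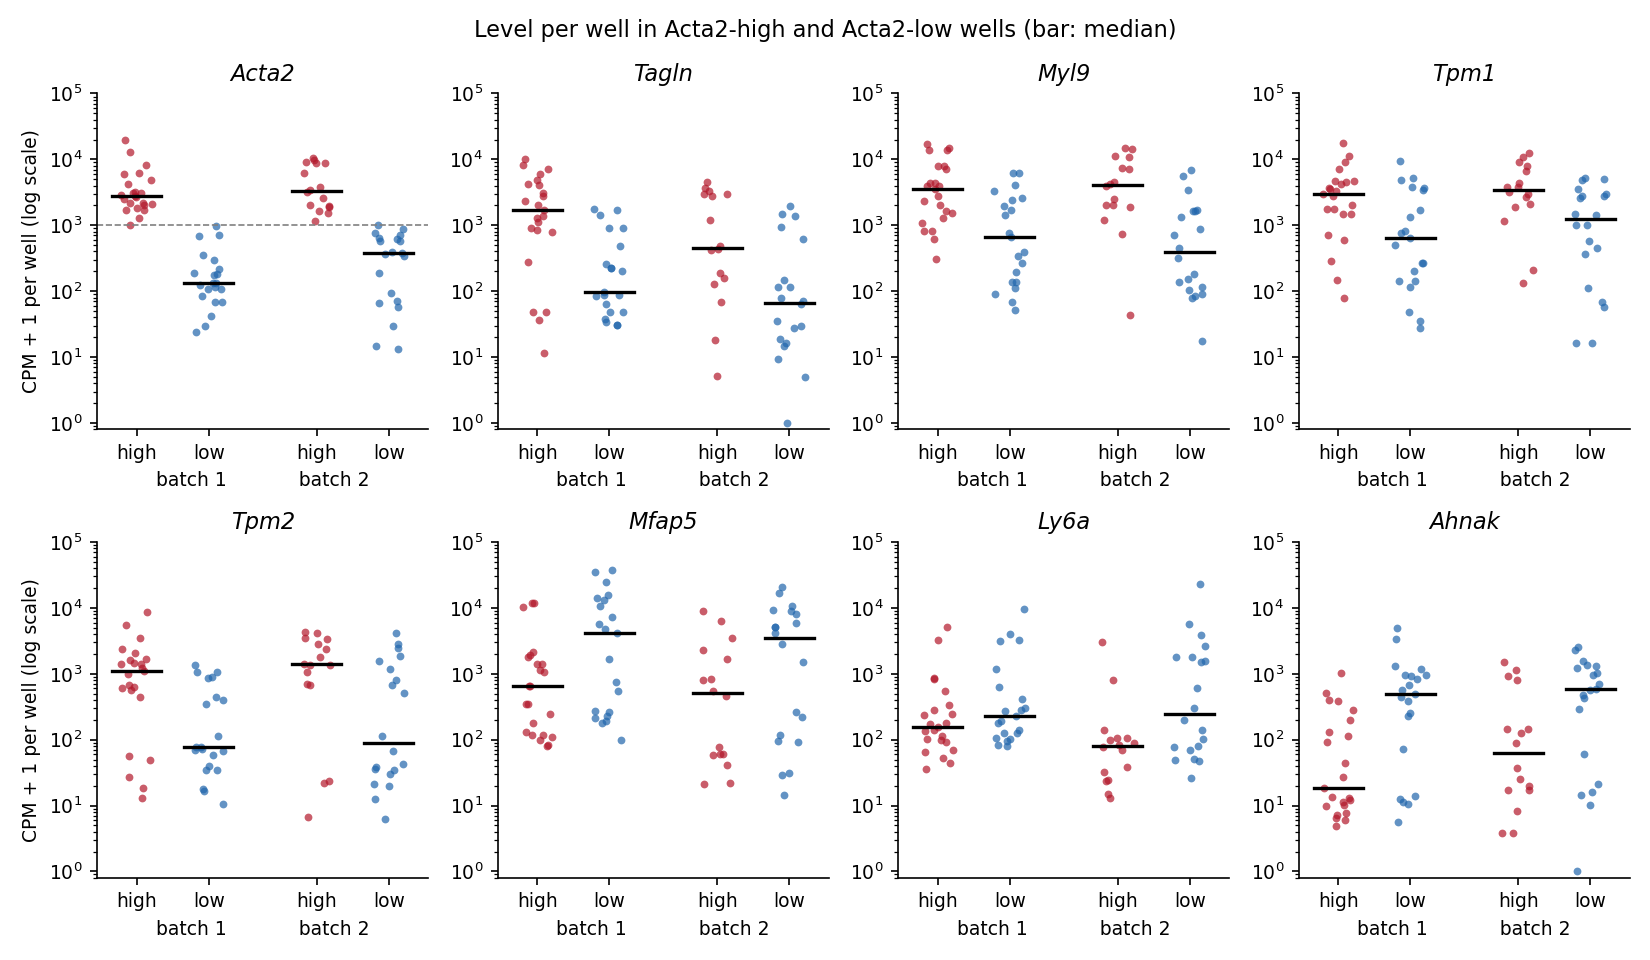
Level per well (CPM plus 1, log scale) of 8 genes in Acta2-high (red) and Acta2-low (blue) wells of batches 1 and 2, with the median as a bar and the split at 1000 CPM as a dashed line. Acta2 is the gene the wells were split on; the wells of the other 7 genes overlap between the classes in both batches while the medians of Tagln, Myl9, Tpm1 and Tpm2 are higher and those of Mfap5, Ly6a and Ahnak lower in the Acta2-high wells.

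Apart from Acta2, the abundant genes that separated the classes in both batches were Tagln, Myl9, Tpm1, Tpm2 and Mylk, all of the contractile apparatus and all higher in Acta2-high wells, and Mfap5, Ly6a, Serpinf1 and Ahnak, all higher in Acta2-low wells. A gene was called here when the ratio of its summed CPM was at least 2-fold, in the same direction in both batches, and stayed so when any single well was left out. Where a well is said to be left out beforehand, this whole rule was applied anew to the remaining wells, each again left out in turn. A gene can lose its call this way and still be 2-fold apart without that well. Ratios are given as log2 of Acta2-high over Acta2-low, each with 1 CPM added, and genes were compared when their mean over both classes and batches was at least 10 CPM. Of 7459 genes compared, 123 (1.65%) were called higher in Acta2-high wells and 118 (1.58%) in Acta2-low wells. By the same limits, 96 genes were high in the Acta2-high wells of batch 1 and in the Acta2-low wells of batch 2, and 80 were the reverse, so 176 genes passed in opposite directions beside 241 in the same direction.

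Fewer abundant genes passed in opposite directions. Of the 1648 genes at a mean of 100 CPM or more, 34 passed the limits in the same direction and 14 in opposite directions. At 500 CPM or more, 10 of 333 genes passed in the same direction and 0 in opposite directions, namely the 6 contractile genes with Acta2 and the 4 genes of the Acta2-low wells given above. Across genes, the log2 ratios of the batches had a Pearson correlation of 0.06 over all 7459 genes, 0.42 over the 333 and 0.63 over the 129 genes at 1000 CPM or more. These are descriptions over genes of the same wells, and genes are not independent replicates. Acta2 is included in each correlation, and its direction was fixed by the split.

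**Figure D2:**
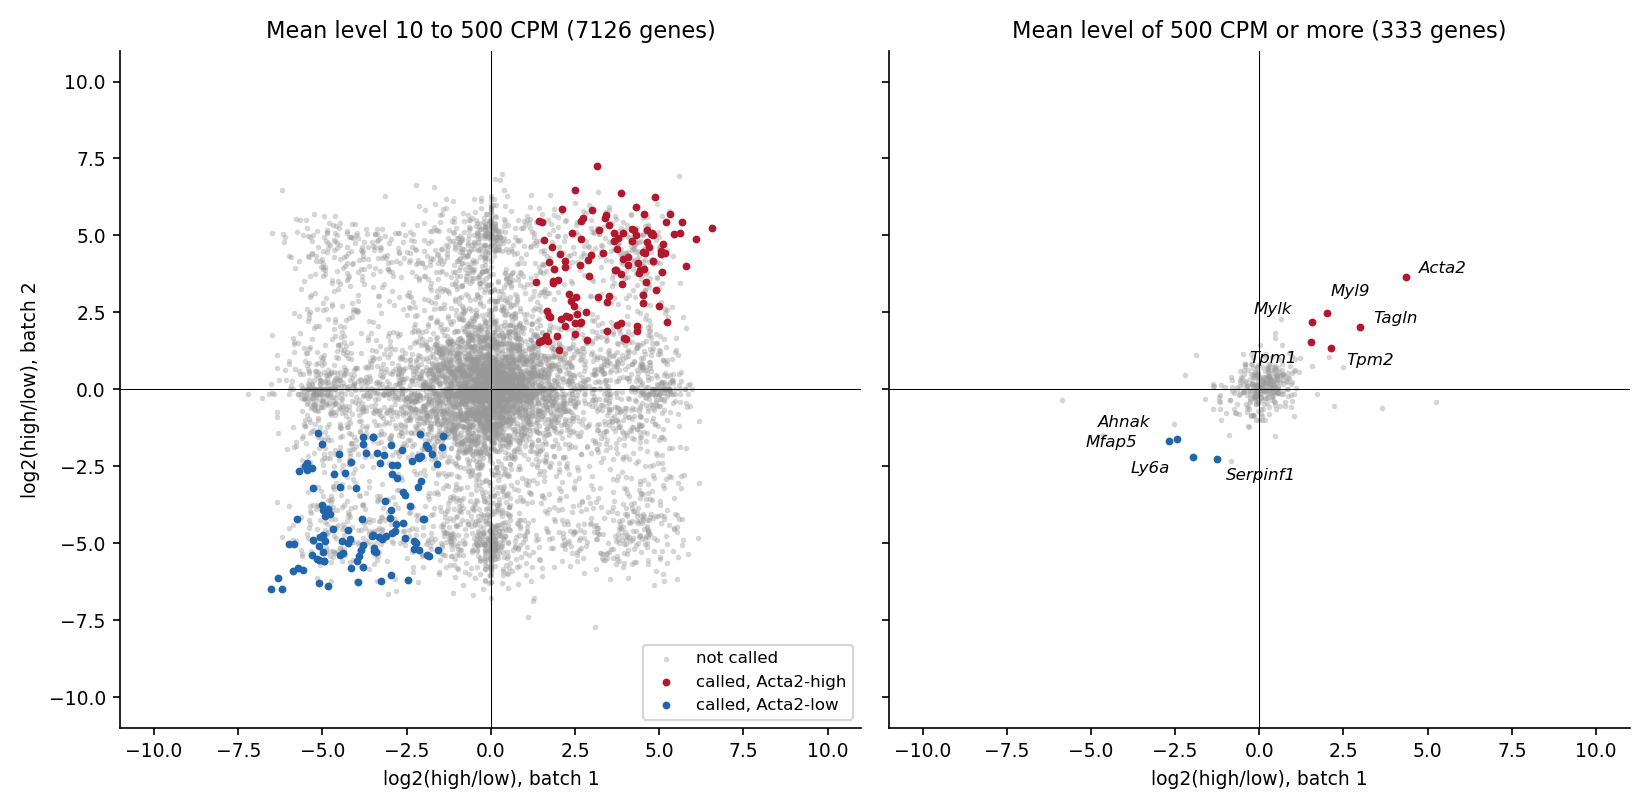
Log2 ratio of summed CPM, Acta2-high over Acta2-low wells, in batch 1 (x axis) and batch 2 (y axis), for genes of mean level under 500 CPM (left) and of 500 CPM or more (right, 333 genes), with called genes in red and blue. At lower levels genes scatter into all 4 quadrants, whereas at 500 CPM or more the 10 named genes lie in the quadrants of equal direction.

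**Figure D3:**
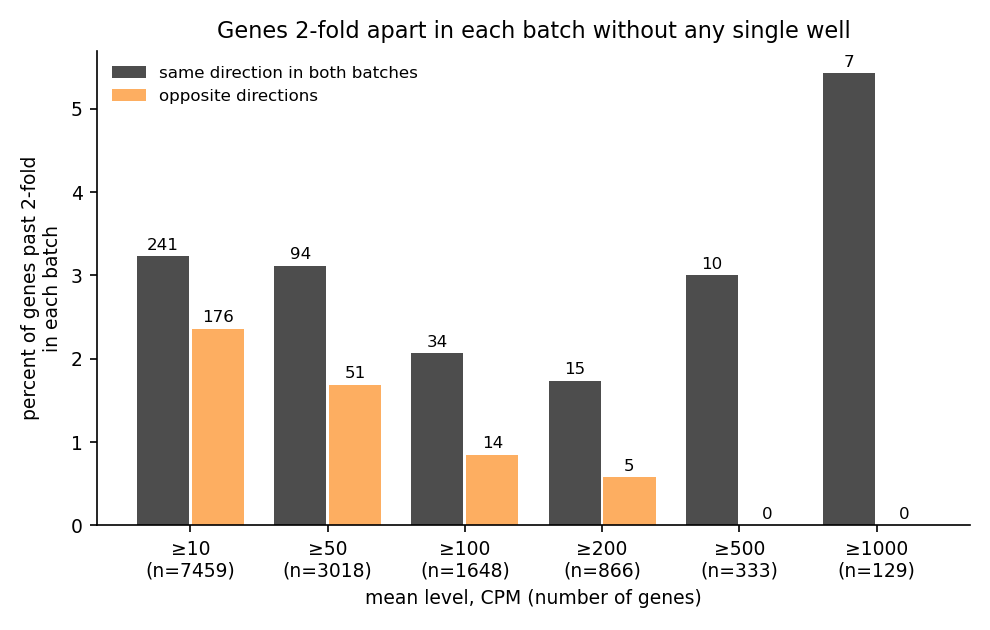
Percent of genes at least 2-fold apart in each batch without any single well, by mean level (CPM, number of genes under each pair of bars), in the same direction (dark) or in opposite directions (orange) in the 2 batches, with the count above each bar. Opposite directions fall from 176 genes at 10 CPM or more to 0 at 500 CPM or more.

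Of the contractile list's 22 compared members, 10 were called higher in Acta2-high wells and 0 higher in Acta2-low wells, beside 1.65% and 1.58% of all genes, and Acta2 itself is 1 of the 10. The median log2 ratio of the list was 1.52 in batch 1 and 1.55 in batch 2, beside -0.03 and -0.01 over all genes compared. Above 0 in both batches were 19 of the 22 members, beside 1861 of all 7459 genes, of which 2024 were below 0 in both. The same values over all genes stand beside every list below. The list was chosen with earlier results on these wells known, and its counts are a description. With every well weighted equally (the mean of per-well CPM) and with wells thinned to 50000 reads, 6 members were called instead of 10, namely Acta2, Tagln, Myl9, Myh11, Cnn1 and Actg2. Past 4-fold in place of 2-fold, 2 were, Acta2 and Actg2.

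Tagln, which codes for the actin-binding protein transgelin, ranged over the Acta2-high wells of batch 1 from 10.4 over a median of 1702 to 10271 CPM, and over the Acta2-low wells from 29.2 over 97.6 to 1795 CPM. In batch 2 its lowest, median and highest values were 4.14, 455 and 4487 CPM against 0, 66.1 and 1952 CPM. The classes overlap, but 19 of 23 and 14 of 16 Acta2-high wells lay above the Acta2-low median. Summed, Tagln stood at 3224 against 402 CPM in batch 1 (log2 ratio 2.999) and at 1521 against 376 CPM in batch 2 (2.01).

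Myl9, the regulatory light chain of smooth muscle and non-muscle myosin, was at 303, 3498 and 17072 CPM (lowest, median and highest) in the Acta2-high wells of batch 1 and at 50.8, 659 and 6168 CPM in the Acta2-low wells. The values in batch 2 were 42.4, 4072 and 14695 CPM against 16.6, 386 and 6926 CPM. Here 21 of 23 and 15 of 16 Acta2-high wells exceeded the Acta2-low median, and the log2 ratios of the sums were 2.00 and 2.47.

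Tpm1 and Tpm2 code for tropomyosins, which lie along the actin filament. Tpm1 had a median of 2936 CPM in the Acta2-high and 650 CPM in the Acta2-low wells of batch 1 and of 3474 and 1226 CPM in batch 2 (log2 ratio of the sums 1.55 and 1.54). Tpm2 had medians of 1091 and 75.8 CPM, then 1387 and 89.1 CPM, with log2 ratios of 2.14 and 1.34. Tpm2 reached 100 CPM in 18 of 23 Acta2-high wells (78.3%, exact Clopper-Pearson 95% interval 56.3 to 92.5) against 9 of 21 (42.9%, 21.8 to 65.98) in batch 1, and in 13 of 16 (81.2%, 54.4 to 96.0) against 10 of 20 (50%, 27.2 to 72.8) in batch 2. With every well thinned to 50000 reads the counts were 18, 9, 13 and 11. Mylk, the myosin light chain kinase, differed in how many wells reached 100 CPM. These were 11 of 23 against 4 of 21 wells in batch 1 and 9 of 16 against 5 of 20 in batch 2. The log2 ratios of Mylk were 1.55 and 2.19. The call of Mylk was lost when any 1 of 5 wells of batch 1 was left out beforehand.

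Some of the called contractile genes were also counted jointly per well. They were picked as higher in Acta2-high wells, so a larger joint share there follows from that choice. Whether they go together within a class was not tested. Tagln, Myl9, Tpm1 and Tpm2 were all at 100 CPM or more in 15 of 23 Acta2-high and 5 of 21 Acta2-low wells of batch 1 (65.2%, 42.7 to 83.6, and 23.8%, 8.22 to 47.2) and in 11 of 16 and 3 of 20 wells of batch 2 (68.8%, 41.3 to 88.98, and 15%, 3.21 to 37.9). Of the 22 contractile genes of the table other than Acta2, the lowest, median and highest number at 100 CPM or more was 6, 11 and 18 in the Acta2-high wells of batch 1 and 3, 7 and 12 in the Acta2-low wells. In batch 2 it was 7, 11 and 16 against 3, 7 and 13. The classes overlap in this number too. Within a batch, the Spearman correlation of Acta2 with Myl9 over wells was 0.64 (n = 44) and 0.62 (n = 36), and with Tagln 0.62 and 0.59. The wells of a batch are not independent samples, so these are descriptions. Reads per well correlated with Acta2 at 0.19 and 0.16.

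**Figure D4:**
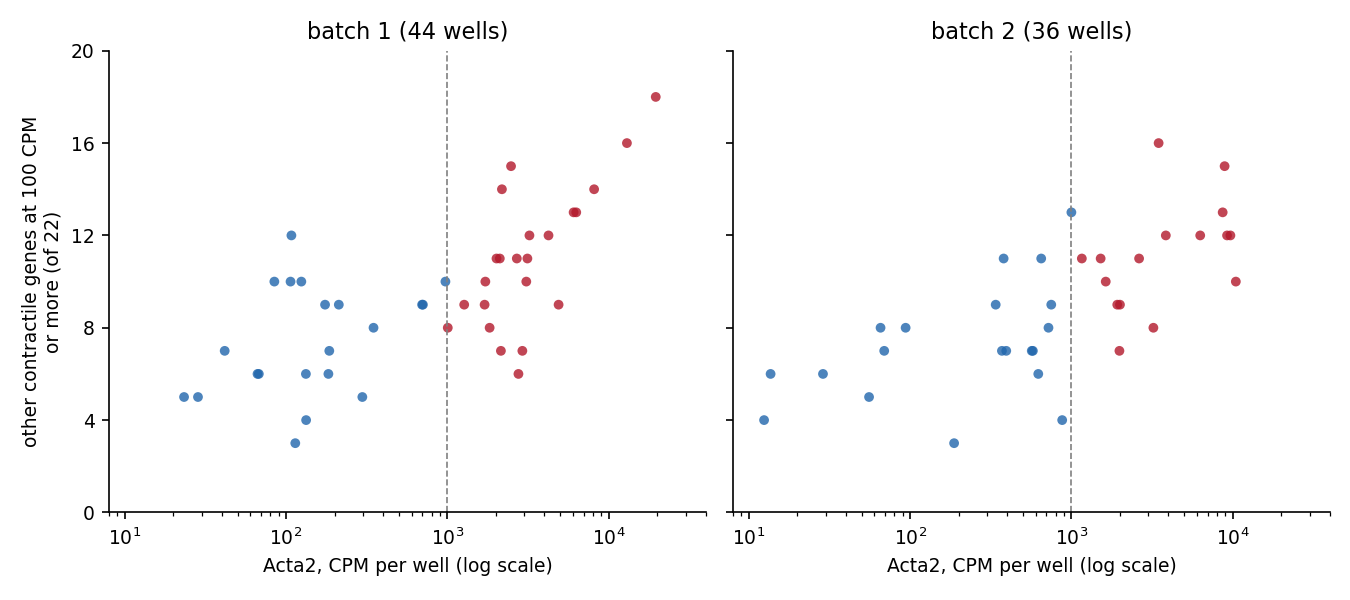
Number of contractile genes other than Acta2 at 100 CPM or more (of 22) against Acta2 level per well (CPM, log scale) in batches 1 and 2, with Acta2-high wells in red, Acta2-low wells in blue and the split dashed. Medians are 11 and 7 genes in both batches, and the clouds overlap around the split.

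The other 4 called contractile genes rested on fewer wells. Actg2, the gamma smooth muscle actin, reached 100 CPM in 8 of 23 Acta2-high and 2 of 21 Acta2-low wells of batch 1 and in 6 of 16 and 1 of 20 wells of batch 2, with log2 ratios of 3.71 and 3.86. Without well g8 the ratio in batch 1 was 2.69, and without well d1, an Acta2-low well, the ratio in batch 2 was 5.69. Its coding sequence is close to that of Acta2, so reads may have been split between these genes in the counting. Csrp1, a LIM-domain protein of the actin cytoskeleton, had log2 ratios of 1.49 and 1.57, and the ratio in batch 1 was 2.55 without the Acta2-low well g12.

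Cnn1 and Myh11, calponin and the smooth muscle myosin heavy chain, mark differentiated smooth muscle. Cnn1 reached 100 CPM in 5 of 23 and 2 of 16 Acta2-high wells and in 0 of 21 and 0 of 20 Acta2-low wells (Clopper-Pearson upper limits 16.1% and 16.8%). Its summed level was 382 against 2.995 CPM in batch 1 and 137 against 2.61 CPM in batch 2 (log2 ratio 6.58 and 5.26), but well g8 held 71.7% of the reads of batch 1 and well e5 92.95% of those of batch 2, and without these wells the ratios were 4.90 and 1.66. Myh11 had log2 ratios of 1.88 and 3.91. It reached 100 CPM in 4 of 23 against 1 of 21 wells of batch 1 and in 3 of 16 against 0 of 20 wells of batch 2. Its median per well was 3.79 CPM in the Acta2-high and 4.61 CPM in the Acta2-low wells of batch 1, the other way round from the sums. In batch 2 it was 2.08 against 0.487 CPM. Its ratio in batch 1 was 1.08 without well d8 and 5.06 without the Acta2-low well a9, and its ratio in batch 2 was 5.30 without the Acta2-low well d1. Either of Cnn1 and Myh11 was at 100 CPM in 11 of the 39 Acta2-high wells and in 1 of the 41 Acta2-low wells. The calls of these genes did not hold up equally: that of Cnn1 was lost when either of 2 wells of batch 2 was left out beforehand, and those of Csrp1 and Myh11 when any 1 of 7 wells was.

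Of 7 compared smooth muscle markers, 4 were called higher in Acta2-high wells (Actg2, Cnn1, Myh11 and Kcnmb1) and 0 higher in Acta2-low wells. The shares over all genes were 1.65% and 1.58%, and 3 of the 4 called markers are also contractile list members. Kcnmb1, the smooth muscle subunit of a calcium-activated potassium channel, reached 100 CPM in 2 of 23 and 4 of 16 Acta2-high wells and in 0 of 21 and 0 of 20 Acta2-low wells. It stood at 74.4 against 1.56 CPM and at 112 against 0.475 CPM (log2 ratio 4.88 and 6.26), with 3.55 in batch 1 without well g8, which held 64.5% of the reads, and 5.46 in batch 2 without well b8. Leaving out well d8 or well g8 of batch 1 before the calls were made left 2 of these 4 genes called. At least 2 of 7 mural markers (Rgs5, Notch3, Cspg4, Mcam, Kcnj8, Abcc9 and Myh11) were at 100 CPM in 5 of 39 Acta2-high and 2 of 41 Acta2-low wells. Without these 7 wells, 7 contractile genes were called (Acta2, Tagln, Myl9, Cnn1, Tpm2, Actg2 and Csrp1), and Tpm1, Mylk and Myh11 were not, and 2 smooth muscle markers were called (Cnn1 and Actg2).

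The remaining contractile genes were not called. Cald1, the thin-filament protein caldesmon, stood at 4692 against 3161 CPM and at 4217 against 2985 CPM (log2 ratio 0.57 and 0.50). Des, the intermediate filament protein desmin, had ratios of 5.11 and 0.94, and Actn1, the filament cross-linker alpha-actinin, of -0.71 and -0.47. In the list of actin regulators and serum response factor cofactors, 0 of 20 were called in either direction, with medians of 0.31 and 0.57. Its most abundant members, the monomer-binding thymosins Tmsb4x (0.56 and 0.09) and Tmsb10 (0.23 and 0.73), the filament-severing protein cofilin Cfl1 (0.67 and 0.81) and the cytoplasmic actin Actb (1.05 and 0.63), were above 0 in both batches and under the 2-fold limit in at least 1. Actg1 had 12 reads and Ilk 3 reads in all 80 wells although most cells use both, so a level near 0 in these tables was not read as absence. Of 8 compared vasoactive receptors and channels, 2 were called higher in Acta2-high wells, beside 1.65% of all genes. They were Kcnmb1 and Gucy1b3, the beta subunit of soluble guanylate cyclase (log2 ratio 3.75 and 2.09). The call of Gucy1b3 was lost when any 1 of 11 wells of batch 2 was left out beforehand. Gucy1b3 was at 2.36 in batch 1 without well g7 and at 5.53 without the Acta2-low well h10, and in batch 2 at 1.05 without well h2 and at 2.94 without the Acta2-low well h1.

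RefSeq promoter sequence of build GRCm38.p6 was at hand for 7 of the 10 (Acta2, Myl9, Cnn1, Tpm1, Tpm2, Mylk and Csrp1), and the 250 bases before each annotated start were searched for the CArG box, taken as CC, 6 central bases of which at most 1 is not A or T, and GG. The pattern is its own reverse complement, so both strands are covered. It was found at Acta2 and Myl9, 2 matches each, and at none of the other 5, beside 2823 of 32851 promoters of the table (8.59%), or 482 (1.47%) where no other central base is allowed. The 30 bases around every match found are shown 5′ to 3′ on the strand of the gene with the match in capitals.
Acta2, chr19:34255438-34255467, reverse strand, match 84 to 75 bases before the start: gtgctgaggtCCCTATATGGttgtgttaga
Acta2, chr19:34255388-34255417, reverse strand, match 34 to 25 bases before the start: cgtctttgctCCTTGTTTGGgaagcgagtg
Myl9, chr2:156775293-156775322, forward strand, match 161 to 152 bases before the start: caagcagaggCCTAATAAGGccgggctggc
Myl9, chr2:156775355-156775384, forward strand, match 99 to 90 bases before the start: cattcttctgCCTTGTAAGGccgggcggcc
The first Myl9 match has only A and T in its centre and the other 3 hold 1 other base. In GENCODE vM21 the Acta2 gene begins further upstream, and its span covers both of its matches. A match is a description of letters and not a measured binding site, and the lack of one says only that these letters are not in this window. The build behind the deposited counts is not given in the sources used here.

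Mfap5 was the most abundant gene called higher in Acta2-low wells. It codes for a small glycoprotein of elastic microfibrils. Its lowest, median and highest values were 79.1, 642 and 11875 CPM in the Acta2-high wells of batch 1 and 98.6, 4223 and 38151 CPM in the Acta2-low wells. In batch 2 they were 20.1, 504 and 9070 CPM against 13.5, 3495 and 21030 CPM. The classes overlap over most of the range, and 3 of 23 and 2 of 16 Acta2-high wells lay above the Acta2-low median. The log2 ratios of the sums were -2.68 and -1.69, and the ratio in batch 2 was -2.29 without well h9, an Acta2-high well.

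Ly6a, the surface protein Sca-1, had medians that differed less than its sums. They were 156 CPM in the Acta2-high and 230 CPM in the Acta2-low wells of batch 1 and 78.9 and 248 CPM in batch 2, with highest values of 5145 and 9599 CPM, then 3011 and 23369 CPM. It reached 100 CPM in 16 of 23 against 18 of 21 wells of batch 1 and in 5 of 16 against 13 of 20 wells of batch 2. Its log2 ratios of -1.96 and -2.19 became -1.11 without the Acta2-low well c8 and -3.02 without well d3 in batch 1, and -1.56 without the Acta2-low well f5 and -4.10 without well g4 in batch 2. Ly6a is 1 of a family of near-identical neighbouring genes, so its counts are uncertain where reads fit several of them.

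Ahnak, a very large scaffold protein under the cell membrane, was at 3.83, 17.3 and 1019 CPM (lowest, median and highest) in the Acta2-high and at 4.61, 499.98 and 4929 CPM in the Acta2-low wells of batch 1, and at 2.82, 61.96 and 1489 CPM against 0, 586 and 2548 CPM in batch 2. It reached 100 CPM in 8 of 23 (34.8%, 16.4 to 57.3) against 15 of 21 (71.4%, 47.8 to 88.7) and in 7 of 16 (43.8%, 19.8 to 70.1) against 14 of 20 wells (70%, 45.7 to 88.1). Thinned to 50000 reads, the counts were 8, 15, 6 and 14. Its log2 ratios were -2.46 and -1.62. Serpinf1, the secreted protein PEDF that restrains vessel growth, was named after its values were seen. It had medians of 30.3 against 425 CPM and of 50.7 against 1453 CPM, with log2 ratios of -1.24 and -2.28 and -2.96 in batch 2 without well h9.

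Other genes called higher in Acta2-low wells were carried by few wells. Cdkn1a, the cell cycle inhibitor p21, reached 100 CPM in 4 of 23 and 4 of 21 wells of batch 1 and in 0 of 16 and 6 of 20 wells of batch 2. Its sums were 128 against 716 CPM and 7.95 against 657 CPM (log2 ratio -2.47 and -6.20), but the Acta2-low wells a6 and f5 held 56.7% and 62.6% of the reads of their classes. The ratio was -1.44 without a6 and -3.39 without well d3 in batch 1, and -4.97 without f5 in batch 2. Podn, a small leucine-rich proteoglycan, reached 100 CPM in 0 of 23 against 3 of 21 and in 1 of 16 against 4 of 20 wells (log2 ratio -5.47 and -2.61, with -4.53 without the Acta2-low well a9 in batch 1 and -5.41 without well h9 in batch 2). Fap, a surface protease of activated fibroblasts, had 0 reads in the Acta2-high wells of batch 1, which allows up to 0.290 CPM by the limit of 3 reads. It stood at 5.87 CPM in the Acta2-low wells there and at 15.7 against 90.9 CPM in batch 2, where the log2 ratio of -2.46 became -5.70 without well f6 and -1.55 without the Acta2-low well a6. Kcnj8, a potassium channel subunit of pericytes, had 3 reads in the Acta2-high wells of batch 1 against 326 in the Acta2-low wells, and 9 against 845 reads in batch 2, where it was at 100 CPM in 3 of 20 Acta2-low wells (log2 ratio -5.59, and -4.96 without the Acta2-low well d11).

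The collagens that define a mesenchymal well were not called in either direction. The rule required collagen in every well, so only levels above that limit are described. Col1a1, for 1 of the chains of type I collagen, had summed levels that stood at 6079 against 9281 CPM in batch 1 and at 7522 against 13229 CPM in batch 2 (log2 ratio -0.61 and -0.81), and Col1a2, the other chain, at 4278 against 7009 and 5139 against 8682 CPM (-0.71 and -0.76). Col3a1, of type III collagen, had ratios of -1.36 and 0.12. None of the 22 fibrillar collagen and processing genes was called in either direction, and the medians were -0.52 and -0.16. In median per well, the 3 collagens together were at 10504 CPM in the Acta2-high and 24342 CPM in the Acta2-low wells of batch 1, and at 18033 and 18495 CPM in batch 2, so the batches differ here. The highest Acta2-high well reached 78791 CPM of these collagens.

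Of 16 basement membrane and type VI and VIII collagen genes, 0 were called higher in Acta2-high wells and 1 higher in Acta2-low wells, Lamc1, a laminin chain (log2 ratio -1.74 and -2.12). Without well d8 the Lamc1 ratio of batch 1 was -4.15. In batch 2 it was -3.08 without well g4 and -1.32 without the Acta2-low well c7, and the call was lost when any 1 of 4 wells was left out beforehand. Col4a1, of type IV collagen, had ratios of 0.68 and 1.45, and reached 100 CPM in 20 of 23 against 13 of 21 wells and in 15 of 16 against 8 of 20 wells. Col6a1 had -1.36 and -0.66, Col4a2 -0.19 and 1.02, and Col8a1 -0.83 and -2.35. Of 9 small leucine-rich proteoglycans, which bind collagen fibrils, 0 and 1 (Podn) were called, and the medians were -1.34 and -0.33. Below 0 in both batches lay 2024 of all 7459 genes and 8 of these 9 proteoglycans. The most abundant of them were decorin (Dcn, -1.62 and -0.33), biglycan (Bgn, -1.16 and -0.20), lumican (Lum, -4.65 and -1.47) and Prelp (-0.07 and -0.12). Lum stood at 58.3 against 1487 CPM and at 703 against 1954 CPM. It met the call rule when any 1 of 7 wells of batch 2 was left out beforehand. Of 26 matricellular and elastic fibre genes, 0 and 1 (Mfap5) were called. Efemp1, a fibulin of the elastic fibre, had ratios of 3.26 and 3.10. It met the call rule as higher in Acta2-high wells when any 1 of 18 wells of batch 1 was left out beforehand. Sparc, a collagen-binding glycoprotein, was at -0.57 and -0.15, Mgp, an inhibitor of calcification, at 0.19 and 0.20, and Spp1, osteopontin, at 3.64 and -0.62. Wells e5 and e1 of batch 2 held 89.6% and 86.4% of the Spp1 reads of their classes. Of 11 metalloproteinases and inhibitors 0 were called, with Timp1 at 0.09 and -0.12, Mmp14 at -0.50 and 0.32, Mmp2 at -2.28 and -0.16 and Timp3 at -0.99 and -1.15.

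Fibroblast markers gave 0 called higher in Acta2-high and 2 called higher in Acta2-low wells (Ly6a and Fap) of 10 compared. The shares over all genes were 1.65% and 1.58%, and the list medians were -1.38 and -0.45. The call of Ly6a was lost when any 1 of 5 wells of batch 1 was left out beforehand. That of Fap was lost when either of 2 wells of batch 2 was. Pi16, a marker of fibroblasts around vessels, had ratios of -2.70 and -1.13, the actin-severing protein gelsolin (Gsn) -1.16 and -0.40, and Thy1, a surface glycoprotein, 1.00 and -1.49. Pdgfra, the receptor of many resident fibroblasts, was at 100 CPM in 9 of 39 Acta2-high and 7 of 41 Acta2-low wells. Tagln and Ly6a were at 100 CPM in the same well in 18 of 39 Acta2-high and 13 of 41 Acta2-low wells, so the leading genes of the 2 classes were not exclusive.

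Among 19 genes of TGF-beta and BMP signalling, 1 was called higher in Acta2-high wells, Inhba, the activin A subunit, and 0 in Acta2-low wells. The shares over all genes were 1.65% and 1.58%, and the list medians were 0.05 and -0.32. Inhba reached 100 CPM in 9 of 23 against 7 of 21 and in 8 of 16 against 5 of 20 wells and stood at 393 against 96.3 CPM and at 419 against 171 CPM (log2 ratio 2.02 and 1.29, and 1.99 in batch 2 without the Acta2-low well f5). Its call was lost when any 1 of 11 wells of batch 2 was left out beforehand. Id3, a target of BMP signalling, had ratios of 0.86 and 0.54, the receptor gene Tgfbr2 -2.37 and -0.38 and the latent binding protein gene Ltbp2 -0.95 and -2.84. Tgfb1 had 2 reads in all 80 wells. Id2, an inhibitor of basic helix-loop-helix transcription factors and a member of no list, was called higher in Acta2-high wells (2.51 and 1.79). It was at 100 CPM in 6 of 23 against 3 of 21 wells and in 10 of 16 against 4 of 20 wells. Its median per well was 4.53 CPM in the Acta2-high and 7.81 CPM in the Acta2-low wells of batch 1, the other way round from the sums, and 249.98 against 13.3 CPM in batch 2. The Spearman correlation of Id2 with Acta2 was 0.04 (n = 44) and 0.25 (n = 36). Its call was lost under 6 of 19 settings, equal weighting of wells and thinning among them.

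Other signalling lists held few calls. In the IGF axis, 0 of 10 were called and the medians were -1.21 and -0.71. Below 0 in both batches lay 2024 of all 7459 genes and 8 of the 10 in this axis. The binding proteins Igfbp7 (-0.87 and -0.34), Igfbp4 (-1.34 and -1.07) and Igfbp6 (-2.09 and -0.21) were its most abundant members beside H19 (-1.09 and -5.04), a non-coding RNA. None was called among 8 PDGF and other growth factor genes (Pdgfrb 0.87 and 0.28), 10 Wnt modulators, 7 Notch and hedgehog genes, 14 stromal cytokines and complement genes, 9 interferon-induced genes, 10 integrin and caveola genes and 15 mesenchymal transcription factors. Il33, an alarmin cytokine, was at -2.53 and -1.12 and reached 100 CPM in 3 of 23 against 9 of 21 and in 4 of 16 against 12 of 20 wells. It met the call rule when any 1 of 3 wells of batch 2 was left out beforehand. Of 16 immediate early and stress genes, 0 and 1 were called, Fosb (-2.54 and -3.43), a transcription factor of the AP-1 family, which reached 100 CPM in 1 of 23 against 3 of 21 and in 0 of 16 against 1 of 20 wells. Fosb was at -1.42 without the Acta2-low well f2 in batch 1 and at -2.37 without the Acta2-low well g2 in batch 2. Its call was lost when any 1 of 3 wells of batch 1 was left out beforehand, and that of Cdkn1a when either of 2 was. Of 7 cell cycle genes 0 and 1 (Cdkn1a) were called. Tyms, thymidylate synthase, had ratios of 1.87 and 2.93. It met the call rule as higher in Acta2-high wells when any 1 of 13 wells of batch 1 was left out beforehand. The proliferation marker Mki67 was under the level filter.

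Markers of other cell types were looked at in the same way. Of 8 pericyte markers, 0 and 1 (Kcnj8) were called, beside 1.65% and 1.58% of all genes. The list medians were 0.44 and 0.46, with Rgs5 at -1.74 and -0.66. Of 3 mesangial markers, 2 renin cell markers, 3 endothelial, 5 macrophage and leukocyte, 8 tubule, 1 podocyte and 4 red cell markers that passed the level filter, 0 were called, and none of 7 lymphocyte markers passed it. Their median log2 ratios were 0.85 and 4.30 (mesangial), 3.93 and -0.24 (renin cell), -0.06 and -1.29 (endothelial), 0.08 and 1.10 (macrophage and leukocyte), 0.08 and -3.32 (tubule), -3.73 and 0.72 (podocyte) and -0.09 and -0.01 (red cell). Summed over 5 mesangial markers, the median well stood at 798 CPM in the Acta2-high and 111 CPM in the Acta2-low class of batch 1 and at 1549 and 62.9 CPM in batch 2. Those sums ranged from 13.2 to 3595 and from 4.15 to 7409 CPM, then from 6.21 to 4124 and from 9.32 to 5772 CPM, and Hopx had no read in the Acta2-high wells of either batch. Most of these reads were of Serpine2, a secreted protease inhibitor, which was not called (1039.9 against 576 CPM and 1409 against 1392 CPM, log2 ratio 0.85 and 0.02). Whether mesangial cells take part in the differences was not tested. Summed over 13 macrophage and leukocyte markers, the wells of batch 1 ranged from 4.99 to 489 CPM (median 35.04) in the Acta2-high and from 4.61 to 107 CPM (median 29.8) in the Acta2-low class, and those of batch 2 from 19.5 to 5840 CPM (median 123) and from 7.04 to 3785 CPM (median 147). The 7 endothelial markers, on which the wells were filtered, had median sums of 63.4 and 77.3 CPM, then 69.98 and 74.9 CPM. Hemoglobin reads made up a median of 0.545% and 0.632% of the reads of a well in batch 1 and of 0.251% and 0.228% in batch 2, and mitochondrial reads 2.68% and 3.33%, then 2.38% and 2.93%. The highest mitochondrial share of a well was 6.69% in the Acta2-high and 25.4% in the Acta2-low class of batch 1. In batch 2 it was 10.2% and 17.5%. The 17 tubule markers summed to medians of 138 and 147 CPM, then 66.5 and 94.9 CPM, with 25769 CPM in the highest Acta2-low well of batch 2, where the class sums were 207 against 1216 CPM. Their part in the differences was not tested.

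Ren1, the renin gene, differed between batches more than between classes. It was at 100 CPM in 1 of 23 Acta2-high and 1 of 21 Acta2-low wells of batch 1 but in 14 of 16 and 18 of 20 wells of batch 2. In batch 1, well d8 alone stood at 26421 CPM and held 99.1% of the reads of its class, so that the log2 ratio of 5.26 turned to -1.38 without it. In batch 2 the ratio was -0.42. The same well d8 held 45.03% of the Myh11 reads of its class. Whether the Ren1 reads spread over batch 2 are from the cells themselves was not tested.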

How the data were processed

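Single sorted cells were prepared with the Clontech SMARTer kit and sequenced as paired reads of 50 bases on a HiSeq2500, per the labels' protocols. The authors deposited raw read counts per gene and well in 1 table per batch (96 wells a plate, 4 plates). The tools that the submitters' processing notes list are STAR (version 3.0.4), Subread and featureCounts (version 1.4.5). The genome build and annotation behind the counts, and any use of strand, are not given in the sources used here.

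Repeated gene rows (598 and 595 lines, 2.39% and 2.42% of reads) were dropped, which left 40594 genes, and 0 columns could not be tied to a well. Wells were chosen and split as the report states, from 2 plates. Members and gene lists (32 lists, 403 genes) were chosen with earlier results of these data known. Reads were summed per class and batch and scaled to CPM, and log2 ratios had 1 CPM added. No test was made, because no animal is named and cells are not replicates. Intervals are exact (Clopper-Pearson or Poisson, 95%) and cover counting error only. Most genes named are those called at a large size, the top 4 of every list by mean level, and any list member that was called. Some others were named outside this rule, among them Serpinf1, Des, Actn1, Efemp1, Actg1, Ilk, Tgfb1 and Mki67. The ratio computation was tested on simulated data, in which genes varied independently of each other. That run checked the computation and not the calls made in these wells. Alternatives covered the split, the collagen, endothelial, read and level limits, scaling (TMM factors of edgeR 4.0.16, median-of-ratios size factors), pseudocount, fold, well weighting, thinning, repeated rows and each well left out. Python 3.11.15 (numpy 2.4.6, pandas 2.3.3, scipy 1.17.1, matplotlib 3.10.9) and R 4.3.3 were used.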

Additional observations from a re-analysis of the deposited data

Results flagged for a closer look

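Acta2 at 1000 CPM or more was also found in wells outside the comparison. In the CD45+ sort, 7 of 76 wells of at least 50000 reads reached it in batch 1 and 2 of 78 in batch 2, with medians of 11.2 and 2.18 CPM. Of these, 3 and 1 were among the 5 and 2 CD45+ wells that would pass the collagen and endothelial limits of the report. In the CD45- sort, 3 of 8 wells of batch 1 and 2 of 16 wells of batch 2 that were under the collagen limit, with at most 1 endothelial marker, reached it too, and the highest of them stood at 19842 and 19328 CPM (Acta2). Of the CD45- wells with over 1 endothelial marker, 6 of 27 in batch 1 and 7 of 30 in batch 2 reached it. The highest of those stood at 14173 and 7915 CPM. These wells drew attention because they carry Acta2 without having been used in any comparison.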

How the results depend on the processing

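The counts of called genes, 123 higher in Acta2-high and 118 higher in Acta2-low wells, moved most, to 639 and 733, when the single-well requirement was dropped. With Acta2 split at 500 CPM they were 243 and 47 (84 and 27 of them shared with the main calls), and with the split at 2000 CPM 68 and 248 (36 and 82 shared). The settings beside these that moved them by over 1.5 times were a pseudocount of 10 CPM (78 and 62), a level filter of 50 CPM (48 and 46) and a 4-fold limit (53 and 44). The 50 CPM filter left 3018 genes to compare in place of 7459, so its smaller counts are of fewer genes. Leaving out each well in turn beforehand gave 110 to 139 and 99 to 131. The other 13 of 19 settings stayed within 1.5 times. Actg2, whose reads may be shared with Acta2 in the counting, was called under all 19 settings. Tagln and Myl9 were called under 18 (not at 4-fold), Mfap5 and Ahnak under 17, Ly6a under 12. Acta2 was called under all 19 as well, but the wells were split on it, so its call is no sign of stability. The mean log2 ratio of Fap was 0.79 with the split at 500 CPM, the only change of sign among the called named genes over the 19 settings. The cause was not tested. Changes of sign were not counted for named genes without a call. Of 2261 values for 119 named genes under these settings, 225 moved by more than the spread between batches. No paired analysis was possible because no test was made and the replicate numbers of wells only name them. The log2 ratios themselves are taken within each batch. Depth limits shares of wells: 100 CPM is 5 reads in a well thinned to 50000 reads.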
